A study of Mus musculus with 26 samples.

Results

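Dab1, Vldlr, Lrp8 and Reln are 4 of the 36589 genes counted in single thalamic neurons of the mouse. They were taken by name as the genes of the reelin signal, and they were chosen with their levels over projection systems and clusters already known, so those levels are given as a description, with no test. The neurons were marked by a retrograde tracer, which axon terminals take up and transport to the soma, and sorted by hand from slices treated with pronases and blockers of neuronal activity. The cell table put each of 1972 cells in 1 of 5 systems by the cortex it projects to. There were 380 auditory cells from 5 animals aged 70 to 104 days, 484 motor cells from 5 animals of 69 to 112 days, and 388 prefrontal cells from 4 animals of 70 to 91 days. The 285 somatosensory cells came from 3 animals of 64 to 78 days and the 435 visual cells from 4 animals of 69 to 104 days. All animals were listed as male. The deposited labels name the plate and sequencing batch only, so systems, animals and clusters are those of the authors' cell table, and strain and injection sites are not given in the sources used here.

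Reelin is a large secreted glycoprotein that neurons lay down in the extracellular matrix. It binds 2 receptors of the lipoprotein receptor family, VLDLR (gene Vldlr) and apolipoprotein E receptor 2 (gene Lrp8), whose cytoplasmic tails carry the adaptor protein DAB1. Src family kinases then phosphorylate DAB1, which recruits further adaptors and is afterwards removed by a ubiquitin ligase. The pathway is best known for the layering of the developing cortex, hippocampus and cerebellum, and in the adult brain for effects on synapses.

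In build GRCm38, Dab1 lies on chromosome 4 from 103619359 to 104744844 on the plus strand and Lrp8 on the same chromosome from 107802261 to 107876840, also on the plus strand. Vldlr lies on chromosome 19 from 27216484 to 27254231 on the plus strand. Reln lies on chromosome 5 from 21884454 to 22344702 on the minus strand. Libraries were read from the 3′ end of transcripts, so the counts do not separate receptor isoforms that differ in an internal exon.

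Counts are of unique molecular identifiers (UMIs), the tags that mark captured transcripts, and were summed over the cells of 1 animal and system. The resulting 21 sums held 4317156 to 20322775 UMIs, and levels are a gene's counts scaled to the same total in every sum (CPM). A cell held 20509 to 683775 UMIs. All 5 genes listed as relay neuron markers were detected, at 4516 to 6556 CPM together in every sum, and each of the 1972 cells had at least 3 of them. Of these, Snap25 alone averaged 3607 CPM, and Snap25 and Rbfox3 are genes of neurons in general. Slc17a6, Tcf7l2 and Gbx2 averaged 707, 925 and 155 CPM. Summed levels of GABA neuron markers reached 72 CPM, of astrocyte markers 16 CPM and of Cajal-Retzius and habenula markers, which include genes of other reelin cells, 6.13 CPM. Endothelial and mural markers reached 6.94 CPM. Oligodendrocyte markers ranged from 7.50 to 361 CPM, with wide overlap between systems. Microglia markers summed to 80.0 to 160 CPM, but C1qb alone averaged 121 CPM and the other 5 averaged 0.00363 to 0.753 CPM. Cortical neuron markers, mostly Slc17a7, stood at 44.1 to 51.4 CPM in somatosensory, 18.9 to 47.9 in motor, 6.25 to 43.2 in auditory, 14.2 to 31.7 in visual and 10.5 to 28.6 CPM in prefrontal sums. Their part in the levels below was not tested. Somatosensory cells were sequenced only in batch 2 and visual cells only in batch 3, while auditory, motor and prefrontal cells were in all 3 batches.

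Reln, the ligand, was barely detected in these neurons. The table held 37 Reln UMIs, in 23 cells (1.17%), and 12 of the 37 came from 1 cell of auditory replicate 2. The auditory sums held 0.114, 0.935, 0, 0 and 0.232 CPM. Only the sum with that 1 cell stood above the others. Motor sums held 0.287, 0.199, 0, 0.115 and 0 CPM, and prefrontal sums 0.148, 0.0732, 0.0984 and 0 CPM. Somatosensory sums held 0.0985, 0.380 and 0.0689 CPM, and visual sums 0.153, 0.164, 0 and 0 CPM. The 5 ranges overlapped, and 7 of the 21 sums had no Reln UMI. The order of the means, from auditory (0.256 ± 0.391, SD, n = 5) over somatosensory (0.182 ± 0.172, n = 3), motor (0.120 ± 0.125, n = 5) and prefrontal (0.0798 ± 0.0615, n = 4) to visual (0.0790 ± 0.0914, n = 4), therefore separated no neighbours. None of the 23 cells with a Reln UMI had a Dab1 UMI, of 223 cells that did, which allows a share of up to 1.35% by counting error alone.

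Vldlr, the first receptor, was found in every sum of every system at a similar level. It gave 22276 UMIs in 1319 cells (66.9%), and the sums spanned 68.7 to 130 CPM, a range of 1.89-fold. Auditory sums held 130, 121, 97.7, 99.2 and 109 CPM (111 ± 13.8, n = 5). Visual sums held 106, 94.8, 105 and 103 CPM (102 ± 5.04, n = 4), and motor sums 110, 124, 83.6, 89.7 and 93.1 CPM (100 ± 16.7, n = 5). These 3 ranges overlapped, with 3 motor sums below every auditory and visual sum. Somatosensory sums held 112, 94.8 and 91.1 CPM (99.2 ± 11, n = 3), and prefrontal sums 76.8, 68.7, 98.2 and 91.8 CPM (83.9 ± 13.5, n = 4). Prefrontal sums were the lowest on average, but each neighbouring pair in the order overlapped. The 2 low prefrontal sums were those of batch 1, in which auditory and motor sums held 110 CPM or more.

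Lrp8, the second receptor, gave 6440 UMIs in 655 cells (33.2%), and its sums ran from 15.9 to 49.6 CPM. Motor sums held 49.6, 36.1, 27.6, 22.1 and 27.4 CPM (32.6 ± 10.7, n = 5), and auditory sums 30.4, 35.1, 27.9, 20 and 39.1 CPM (30.5 ± 7.30, n = 5). Somatosensory sums held 30.9, 26.9 and 27.2 CPM (28.3 ± 2.25, n = 3). Prefrontal sums held 20.5, 28.5, 23.9 and 32.2 CPM (26.3 ± 5.15, n = 4), and visual sums 24.8, 15.9, 21.9 and 17.7 CPM (20.1 ± 4.03, n = 4). Visual sums were lowest on average, and again no neighbours in the order were free of overlap. The antisense gene Lrp8os2, which overlaps Lrp8 on the other strand, held 854 UMIs, or 13.3% of the Lrp8 count, and whether counting used strand is not given in the sources used here.

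Dab1, the adaptor, was the member whose level followed the projection system. It gave 2512 UMIs in 223 cells (11.3%). Auditory sums held 24.5, 35.3, 53.5, 55.1 and 54.4 CPM (44.6 ± 13.9, n = 5), and visual sums 18.2, 13.6, 12.7 and 18.6 CPM (15.8 ± 3.07, n = 4). All 5 auditory sums were above all 4 visual sums. Prefrontal sums held 12, 18.3, 5.76 and 4.41 CPM (10.1 ± 6.37, n = 4), which overlapped the visual sums. Motor sums held 0, 0.349, 0.819, 0.115 and 0.188 CPM (0.294 ± 0.320, n = 5), all below the lowest prefrontal sum, and the prefrontal mean was 34.4 times the motor mean. The 3 somatosensory sums held no Dab1 UMI, which overlaps the motor sum at 0.

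**Figure D1:**
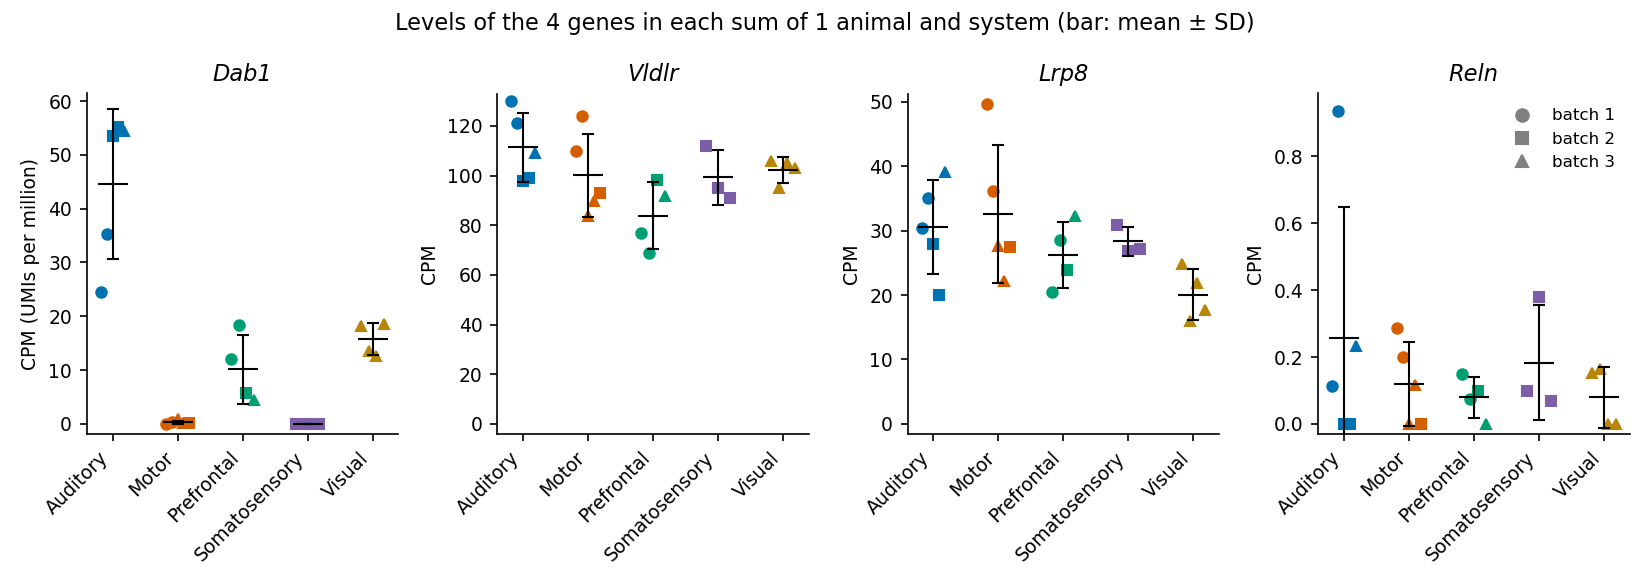
CPM of Dab1, Vldlr, Lrp8 and Reln (1 panel and linear axis each) in the 21 sums of 1 animal and system. Points are sums, their shape is the sequencing batch, and the bar is the mean ± SD. Dab1 runs from 0 in somatosensory sums to 55.1 CPM in auditory sums, while Vldlr stays between 68.7 and 130 CPM.

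The order of Dab1 was the same within each sequencing batch. In batch 1 the mean was 29.9 CPM in 2 auditory sums, 15.1 in 2 prefrontal sums and 0.175 in 2 motor sums. In batch 2 it was 54.3 CPM in 2 auditory sums, 5.76 in the prefrontal sum, 0.188 in the motor sum and 0 in 3 somatosensory sums. In batch 3 the auditory sum held 54.4 CPM, the 4 visual sums 15.8 on average, the prefrontal sum 4.41 and the 2 motor sums 0.467. Within the auditory system the batch 1 sums, at 24.5 and 35.3 CPM, were below the other 3, and within the prefrontal system the batch 1 sums, at 12 and 18.3 CPM, were above the other 2. Batch also went with the animals' age and sort date, so the part of each in these differences cannot be told apart.

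The share of cells with a Dab1 UMI followed the same order, at 28.4% of auditory cells (95% exact Clopper-Pearson interval 23.9 to 33.2), 16.3% of visual cells (13 to 20.1), 8.76% of prefrontal cells (6.14 to 12) and 2.07% of motor cells (0.995 to 3.77). No somatosensory cell of 285 had one, for which the same exact interval reaches 1.29%. These bounds cover counting error only. With every cell thinned to 20000 UMIs, which kept all cells, the shares were 21.6%, 11.5%, 5.67%, 0.826% and 0%. Median depth per cell was 79507 UMIs in auditory, 68018 in visual, 100024 in prefrontal, 105767 in motor and 106300 in somatosensory cells, so the systems with least Dab1 were among the deeper ones.

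Cells that had Dab1 mostly had several UMIs of it. The median over positive cells was 8 UMIs in auditory cells, with a maximum of 68, 6 in visual cells, with a maximum of 28, and 12.5 in prefrontal cells, with a maximum of 47. Prefrontal cells were thus rarely positive but carried as many UMIs when they were. The 10 positive motor cells differed from this, since 5 of them had 1 UMI and the highest had 3. They came from motor replicates 2, 3, 4 and 5.

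Libraries were pooled by plate, and 10 plates held all the somatosensory cells. The same plates held 158 auditory cells with 581 Dab1 UMIs (54.2 CPM), 170 prefrontal cells with 117 UMIs (5.76 CPM) and 165 motor cells with 3 UMIs (0.188 CPM). The 285 somatosensory cells beside them had 0 UMIs in 35201582.

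The authors' clusters were built from all genes of these cells, so the following levels describe the clusters and test nothing. Auditory cells fell into 3 clusters. Auditory cluster 3, with 63 cells, held 118 CPM of Dab1, and 61.9% of its cells had a UMI. Its 5 animals ranged from 69.3 to 162 CPM with a median of 112. Auditory cluster 1 held 35.3 CPM, with animals from 0 to 46.7, and auditory cluster 2 held 23.2 CPM, with animals from 16.7 to 28.1. Every animal of cluster 3 was thus above every animal of the other 2, and this cluster gave 44.0% of all auditory Dab1 UMIs.

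Dab1 was graded rather than split among the visual clusters. Visual cluster 1 held 30.7 CPM, with animals from 15.4 to 42.7, cluster 2 held 12.8 CPM (7.43 to 15.4), and cluster 3 held 8.40 CPM (0 to 15.9). The lowest animal of cluster 1 was at the highest of cluster 2. Prefrontal clusters 3 and 4 held 19.3 and 13.3 CPM, against 2.16 in prefrontal cluster 1 and 0.754 in cluster 2. Those first 2 clusters gave 69.8% and 24.7% of the prefrontal Dab1 UMIs. The level of cluster 4 rested mostly on 1 animal, since 107 of its 117 Dab1 UMIs came from replicate 3, where cluster 1 had no Dab1 UMI. In replicate 4 the order was reversed, with 2.98 CPM in cluster 4 and 27.7 CPM in the 6 cells of cluster 1. All 113 cells of prefrontal cluster 3 came from replicates 1 and 2, which are batch 1, and 94 of the 97 cells of cluster 4 from replicates 3 and 4, so cluster and batch cannot be told apart here. In the single prefrontal cells of clusters 1 and 2 with Dab1, 1 cell each, the gene had 16 and 10 UMIs. The 4 motor clusters held 0.123 to 0.363 CPM.

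Vldlr was lowest in some of the clusters where Dab1 was high. Auditory cluster 3 held 47.7 CPM of Vldlr, with animals from 27.1 to 64.7, against 125 CPM in cluster 1 (83.8 to 262) and 127 CPM in cluster 2 (85.9 to 135). Prefrontal clusters 3 and 4 held 51.4 and 48.5 CPM, against 133 and 128 CPM in clusters 1 and 2. Low Vldlr was not confined to clusters with Dab1. Somatosensory cluster 1, which had no Dab1 UMI, held 63.9 CPM (57.4 to 68.9), against 133 CPM in cluster 2 (127 to 140) and 113 CPM in cluster 3 (89.7 to 116). Visual cluster 1, the visual cluster with the most Dab1, held 125 CPM. The other visual and motor clusters held 78.5 to 122 CPM. Lrp8 ranged from 16.4 CPM in visual cluster 3 to 39.4 CPM in motor cluster 3.

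**Figure D2:**
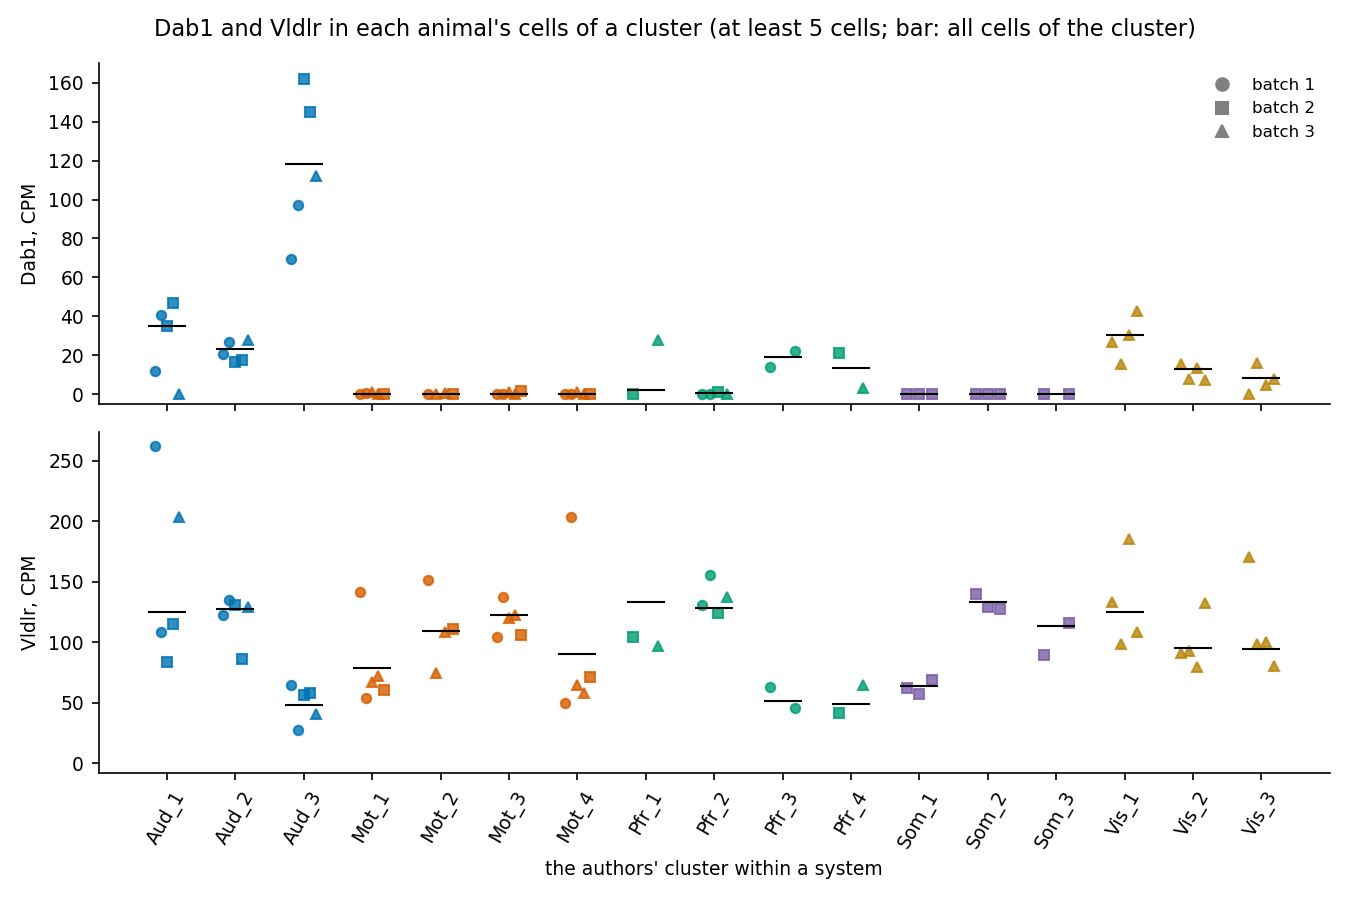
CPM of Dab1 (top) and Vldlr (bottom) in the authors' 17 clusters within systems. Points are the cells of 1 animal in a cluster, where there were at least 5, their shape is the sequencing batch, and the bar is the level over all cells of the cluster. Auditory cluster 3 (Aud_3) holds 118 CPM of Dab1 and 47.7 CPM of Vldlr.

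The authors also clustered all systems together, into 9 joint clusters, some of which mixed systems. Joint cluster 3 held 313 visual cells, with 18.9 CPM of Dab1, and 19 motor cells from 4 animals, with no Dab1 UMI. Joint cluster 5 held 289 auditory cells at 28.5 CPM, 29 prefrontal cells at 3.43 CPM, and 7 motor and 5 visual cells with no Dab1 UMI. Joint cluster 7 held 212 prefrontal cells at 5.57 CPM, 16 visual cells at 23.1 CPM and 26 motor cells at 0.709 CPM. Motor cells thus had little or no Dab1 also in joint clusters they shared with visual or prefrontal cells, although few cells stand behind this. In joint clusters 1 and 2, however, cells of other systems were low too. The 63 and 157 motor cells held 0.304 and 0.223 CPM, and the 24 and 14 prefrontal cells held no Dab1 UMI. The 7 visual cells of cluster 2 held none either, and the 7 auditory cells of cluster 1 held 1 UMI. Joint cluster 6 held 83 visual cells at 3.78 CPM and 15 motor cells at 0.766. Its 6 auditory and 5 prefrontal cells held 28.3 and 55.4 CPM. Of the joint clusters of motor and somatosensory cells, cluster 4 held 0.229 CPM in 190 motor cells and 0 in 66 somatosensory cells. Joint cluster 8, of auditory cells almost alone, held 118 CPM in 62 of them.

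Detection of the receptors beside Dab1 was counted cell by cell. Of the 223 cells with a Dab1 UMI, 53.4% had Vldlr, 27.4% had Lrp8, 14.3% had both and 33.6% had neither. Of the 1749 cells without one, 68.6% had Vldlr, 34% had Lrp8 and 22% had neither. Median depth was 89149 UMIs in the first set and 86904 in the second. The second set holds all somatosensory and nearly all motor cells, in which Vldlr was found in 77.5% and 74.5%, so the pooled shares also differ by system. In auditory cells the shares with Vldlr were 57.4% of 108 cells with Dab1 and 60.7% of 272 without, and in visual cells 62% of 71 and 67% of 364. In prefrontal cells they were 23.5% of 34 and 61.3% of 354, at median depths of 147474 and 96486 UMIs. The gap was thus small in auditory and visual cells and wide in prefrontal cells. Cells with Dab1 were the deeper set in each of these systems. Their median depth was 81729 against 76780 UMIs in auditory and 83611 against 64310 in visual cells. These shares were not matched for depth.

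Levels of the receptors in cells with and without a Dab1 UMI were then compared within each auditory, prefrontal and visual animal, a comparison chosen after the values by cluster had been seen. In the 4 prefrontal animals Vldlr stood at 5.23, 10.0, 9.51 and 9.26 CPM in cells with Dab1, and at 83.4, 85.2, 106 and 96.6 CPM in cells without. All 4 animals showed the lower level, on 5, 14, 12 and 3 cells with Dab1. In the 5 auditory animals it stood at 178, 139, 66.2, 78.5 and 62.3 CPM with Dab1, and at 120, 114, 115, 113 and 139 CPM without. Auditory replicates 1 and 2 were higher and the other 3 lower. In the 4 visual animals it stood at 102, 52.6, 82.7 and 140 CPM with Dab1, and at 107, 103, 109 and 94.3 CPM without, so 3 were lower and 1 higher. Over all 13 animals, of which auditory replicate 5 and visual replicate 1 share an identifier, the mean difference was -34.6 ± 51.5 CPM (SD, n = 13), lower in 10 of 13. It is given with no test, since values of the same cells prompted the comparison. The SD was larger than the mean, and the 4 prefrontal animals all went down while the others went both ways. Without auditory cluster 3 the mean difference was -25.6 CPM.

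Lrp8 differed little on average, again with no test. Its mean was 26.1 CPM in cells with Dab1 and 26.8 CPM in cells without, a difference of -0.685 ± 17.7 CPM (SD, n = 13), lower in 7 animals and higher in 6. In prefrontal clusters 3 and 4 pooled, Vldlr stood at 8.68 CPM in 32 cells with Dab1 and 60.9 CPM in 178 without, and Lrp8 at 41.3 and 27.3 CPM. The gap in Vldlr was thus seen inside the 2 clusters that held most of the prefrontal Dab1. In auditory clusters 1 and 2, Vldlr stood at 143 and 139 CPM with Dab1 and at 119 and 124 CPM without. In auditory cluster 3 it stood at 40.9 CPM in 39 cells with Dab1 and 59.6 CPM in 24 without, and Lrp8 at 11.1 and 54.1 CPM, the opposite order of Lrp8 to that over the pooled prefrontal clusters 3 and 4. In visual clusters 1, 2 and 3, Vldlr stood at 97.8, 94.3 and 149 CPM with Dab1 and at 137, 94.8 and 89.5 CPM without, which is lower, alike and higher.

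**Figure D3:**
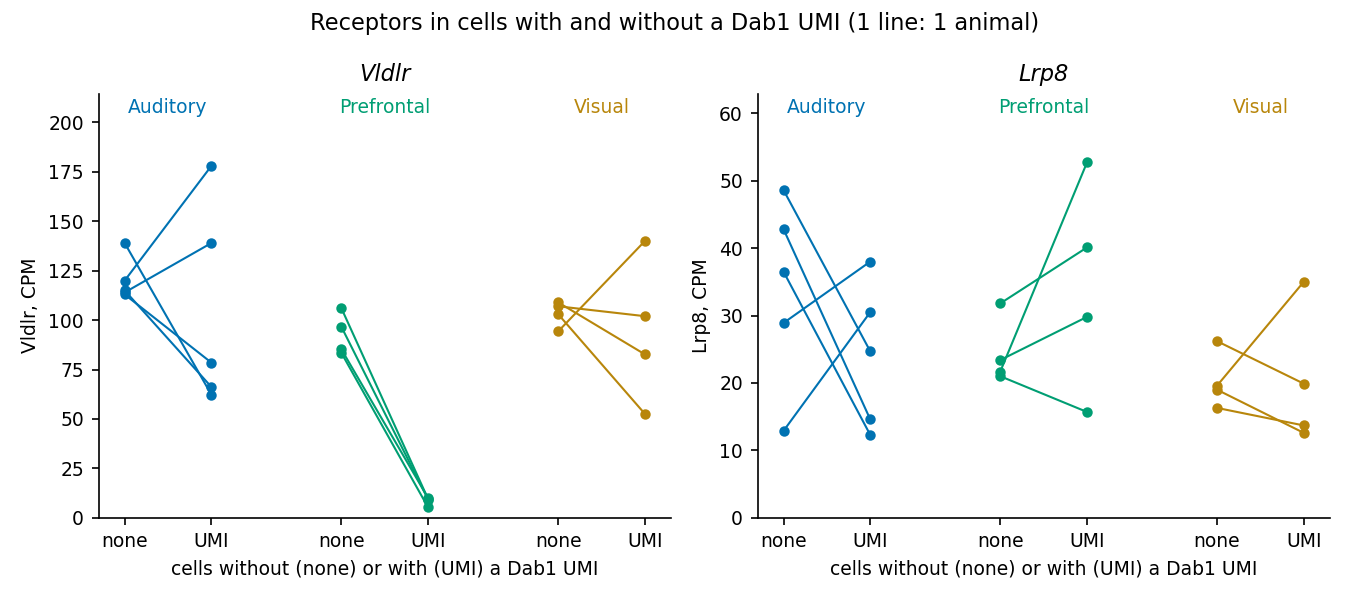
CPM of Vldlr (left) and Lrp8 (right) in cells without and with a Dab1 UMI. Each line is 1 animal of the auditory, prefrontal or visual system. In the 4 prefrontal animals Vldlr goes from between 83.4 and 106 CPM to between 5.23 and 10.0 CPM, while auditory and visual animals go both ways.

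Within systems, thalamic neurons can also be ordered by the genes Tnnt1, Necab1 and Calb2, which encode a slow skeletal troponin T and 2 calcium-binding proteins. A cell was classed by its most abundant one of the 3 in CPM. This made a class of 756 Tnnt1 cells, one of 532 Necab1 cells and one of 611 Calb2 cells. These classes are ranges of 3 genes, not cell types, and 139 of the Calb2 cells had a second anchor gene within 2-fold. Classes were compared within animals with edgeR's quasi-likelihood test on 57 sums of at least 5 cells, fitted on 12038 genes. Ranges and medians by class also include the Tnnt1 sum of somatosensory replicate 2. Its partner classes had under 5 cells, so it was not fitted. Dab1, Vldlr and Lrp8 entered the test, and Reln did not pass its filter on low counts. The classes divide the same cells as the clusters, whose member levels were known when the members were chosen. The p-values by class are therefore not independent of that choice.

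Vldlr was lower in Calb2 cells than in both other classes. Tnnt1 sums held 69.4 to 255 CPM (median 107), Necab1 sums 57.8 to 178 CPM (median 107) and Calb2 sums 45.9 to 130 CPM (median 79.3). The ranges overlapped, and Calb2 cells were the lower ones in 13 of 17 pairs of 1 animal against Tnnt1 cells and in 16 of 18 pairs against Necab1 cells. The log2 fold change of Calb2 against Tnnt1 cells was -0.54 ± 0.15 (SE, edgeR, Benjamini-Hochberg adjusted p = 0.01), and of Calb2 against Necab1 cells -0.46 ± 0.15 (adjusted p = 0.029). Over all genes tested, 5.75% were called lower in the first contrast and 5.27% in the second. Necab1 and Tnnt1 cells differed by -0.08 ± 0.14 (adjusted p = 0.87).

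The first of these calls was lost without prefrontal cells. A model with a class difference per system was chosen after seeing the data, so its p-values serve as description only. In it, Vldlr differed by -1.43 ± 0.34 between Calb2 and Tnnt1 cells of prefrontal animals (edgeR adjusted p = 0.0075, where 2.88% of genes were called lower). This rests on 3 pairs. Calb2 and Tnnt1 cells held 45.9 and 227 CPM in prefrontal replicate 2, 55 and 99.7 in replicate 3 and 86.7 and 155 in replicate 4, on 6, 34 and 6 Tnnt1 cells. The gap was widest in replicate 2. It differed by -0.46 ± 0.27 in auditory, -0.39 ± 0.27 in motor and -0.22 ± 0.30 in visual animals, none of which passed. The test of the difference between systems gave p = 0.056, and 0.7 after adjustment over all genes in edgeR, so the systems were not shown to differ. Without prefrontal sums the first contrast was -0.36 (adjusted p = 0.11 in edgeR), and with sums of at least 10 cells -0.34 (adjusted p = 0.1). The second contrast lost its call when auditory replicate 4 or 5, motor replicate 3 or prefrontal replicate 3 was left out, with edgeR adjusted p of 0.062, 0.063, 0.051 and 0.077 and a log2 fold change of -0.44 to -0.41.

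Dab1 was spread too widely to be placed by class. Tnnt1 sums held 0 to 55.5 CPM (median 1.5), Necab1 sums 0 to 89.9 CPM (median 0.943) and Calb2 sums 0 to 91.6 CPM (median 15.1). The fit gave 0.82 ± 0.62 for Calb2 against Tnnt1 cells (edgeR adjusted p = 0.48) and 1.00 ± 0.63 for Calb2 against Necab1 cells (adjusted p = 0.33). Calb2 sums were higher than Necab1 sums in 5 of 5 auditory animals and 3 of 4 prefrontal animals, and in 2 of 4 visual animals. Of 5 motor animals, which had few Dab1 UMIs, Calb2 sums were higher in 1, lower in 2 and equal in 2. The auditory gap was slight in replicates 3 (67.1 and 65.0 CPM), 4 (91.6 and 89.9) and 5 (66.4 and 64.1). It was wider in replicates 1 (28.3 and 2.75 CPM) and 2 (31.1 and 18.7). Pooled auditory levels were 43.7 CPM in 238 Calb2 cells, 45.4 in 49 Necab1 cells and 29.4 in 92 Tnnt1 cells. In the prefrontal system, pooled levels were 17.8 CPM in 175 Calb2 cells, 0.742 in 159 Necab1 cells and 3.37 in 48 Tnnt1 cells, and in the visual system 13.7, 13 and 21 CPM. In motor cells all 3 classes stood between 0.214 and 0.227 CPM. In the somatosensory system 228 Tnnt1, 35 Necab1 and 5 Calb2 cells held no UMI.

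Lrp8 did not pass in any class contrast. Tnnt1 sums held 9.36 to 57.1 CPM (median 28.6), Necab1 sums 1.66 to 76.6 CPM (median 24) and Calb2 sums 1.72 to 34.4 CPM (median 25.6). The edgeR estimates were -0.36 ± 0.35 (adjusted p = 0.62) for Calb2 against Tnnt1 and -0.04 ± 0.36 (adjusted p = 0.97) for Calb2 against Necab1 cells. In motor animals Calb2 cells were below Tnnt1 cells in 5 of 5 pairs, and in prefrontal animals above them in 3 of 3. The difference between systems did not pass (p = 0.13, edgeR adjusted p = 0.86).

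**Figure D4:**
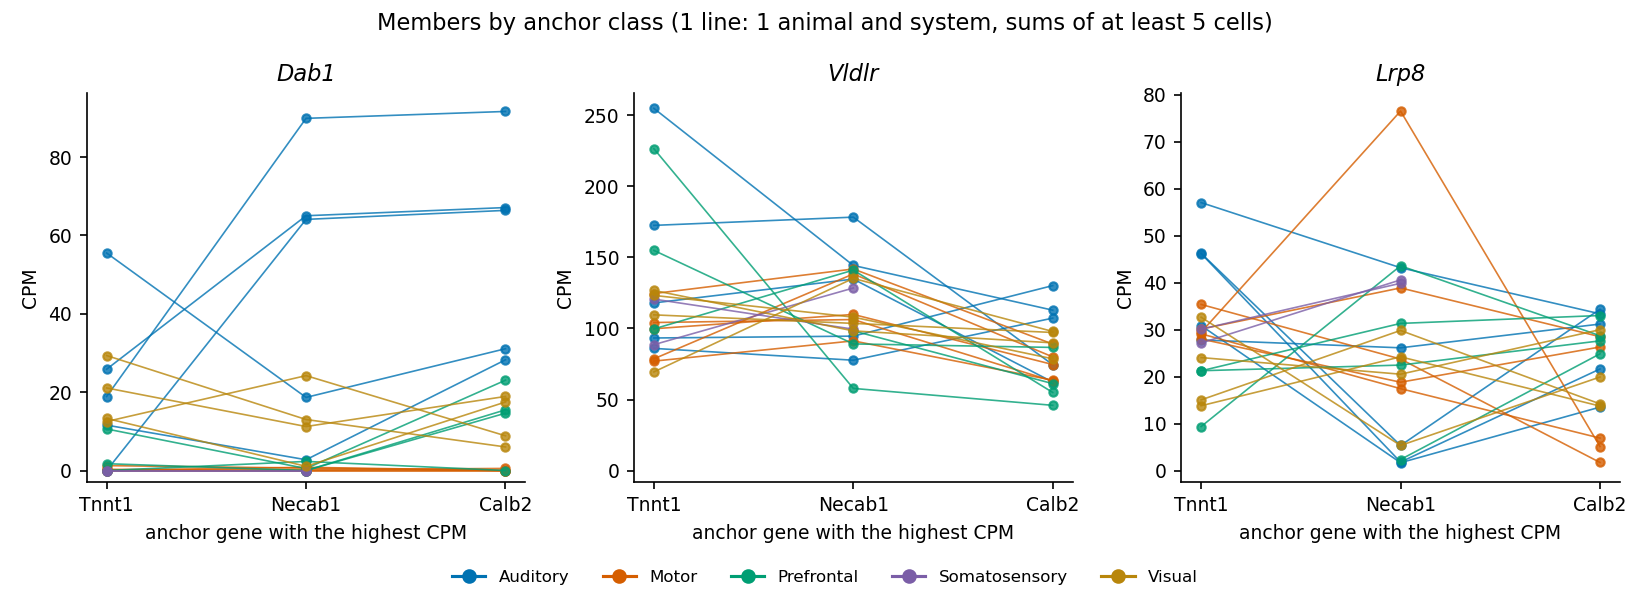
CPM of Dab1, Vldlr and Lrp8 in cells classed by Tnnt1, Necab1 or Calb2. Each line joins the classes of 1 animal and system, coloured by system, for the sums of at least 5 cells that entered the fit. Over all sums of at least 5 cells, of which 1 Tnnt1 sum is not drawn, median Vldlr is 107 CPM in the Tnnt1 and Necab1 classes. It is 79.3 CPM in the Calb2 class.

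Other genes tied to the pathway were taken as 5 lists of 58 genes, of which 55 passed the filter on low counts. These lists were tested over the 5 systems with edgeR's quasi-likelihood F test with batch as a covariate, fitted on 17211 genes. At a Benjamini-Hochberg adjusted p under 0.05, 8 of the 55 differed among systems (14.5%), against 12.6% of all genes tested. The list of DAB1 partners and of proteins further along or beside its signal gave 1 of 21, Mapt. The ubiquitin ligase that removes DAB1 gave 1 of 6, Socs6, and the surface partners gave 1 of 6, Cdh2. None of 7 passed in edgeR among the other ligands and proteins of receptor turnover, where 1 had an unadjusted p under 0.05 and DESeq2 called 1, the protease gene Adamts4. The lipoprotein receptor family with the amyloid precursor proteins gave the remaining 5, of 15 tested (33.3%). Median F was 2.16 over the 55 genes and 1.43 over all genes. The listed genes were not matched to all genes for level, and no list was tested as a set. The lists were chosen with earlier results of these data known, so these shares are not free of that choice.

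In the lipoprotein receptor family and its partners, Aplp2 and Sorl1 differed most. Aplp2, whose protein belongs to the amyloid precursor family that binds DAB1 through its cytoplasmic tail, held 776 ± 65.4 CPM in auditory sums, 908 ± 76.7 in prefrontal, 969 ± 130 in visual, 1332 ± 65.9 in motor and 1377 ± 59.4 in somatosensory sums (edgeR adjusted p = 2.9e-06). The highest auditory sum, 859 CPM, was below the lowest motor sum, 1260. Sorl1, a sorting receptor, held 24.9 ± 6.75 CPM in motor and 40.1 ± 2.84 in somatosensory sums, against 55 ± 10.1 in visual, 91.5 ± 41.6 in auditory and 121 ± 29.2 in prefrontal sums (adjusted p = 3.8e-05). Motor sums reached 34 CPM at most, and no auditory or prefrontal sum was under 53.0.

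The other 3 differed less. App, the amyloid precursor protein gene, held 1872 ± 218 CPM in auditory and 1407 ± 94.6 in prefrontal sums, and Aplp1, of the same family, 602 ± 91.1 in auditory and 364 ± 23.6 in visual sums. Lrp1b, a large endocytic receptor, held 186 ± 27.1 CPM in auditory sums and 95.2 ± 21.7 in somatosensory sums. By edgeR, adjusted p over systems was 0.011 for App, 0.015 for Aplp1 and 0.013 for Lrp1b. Of 31 alternatives, App lost its call in 5, Aplp1 in 6 and Lrp1b in 4. Among these were the exclusion of auditory replicate 3 for Lrp1b, and of auditory replicate 5 or motor replicate 1 or 2 for Aplp1.

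In the remaining lists, Socs6, a substrate adaptor of the ligase, held 36.6 ± 11.2 CPM in prefrontal sums and 60.3 to 74.9 CPM on average in the other 4 systems (edgeR adjusted p = 0.009). Mapt, the gene of the microtubule protein tau, held 1128 ± 76.7 CPM in prefrontal and 739 ± 94.0 in somatosensory sums (adjusted p = 0.021). Cdh2, the gene of N-cadherin, held 93.6 ± 10.5 CPM in visual and 62.2 ± 11.6 in prefrontal sums (adjusted p = 0.046). The call of Cdh2 was lost in 21 of 31 alternatives, with an edgeR adjusted p of up to 0.29. That of Mapt was lost in 7, among them without auditory replicate 3 or motor replicate 1 or 2, and that of Socs6 in 2, without batch 1 or batch 3.

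When a single system was set against the mean of the rest, auditory sums were higher in 4 of the 55 genes (App, Aplp1, Lrp1b and Sorl1; 4.28% of all genes were called higher) and lower in Aplp2 (3.69% lower). Motor sums were higher in Aplp2 (2.32%) and lower in Sorl1 (1.59%). Prefrontal sums were higher in Mapt and Sorl1 (5.19%) and lower in App, Aplp2, Itgb1 and Socs6 (3.97%). Somatosensory sums were higher in Aplp2, at 0.50 ± 0.10 on the log2 scale and an edgeR adjusted p of 0.046, where 0.0349% of all genes were called higher. That value rests on 3 animals, all sequenced in batch 2, so it depends on a batch term estimated from the other systems. In visual sums, all of batch 3, the lowest edgeR adjusted p among the 8 genes was 0.42, for Cdh2. Of all genes, 0.0465% were called higher and 0.0988% lower in visual sums. Sorl1 had the widest span, from -1.49 ± 0.22 in motor to 1.44 ± 0.22 in prefrontal sums.

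**Figure D5:**
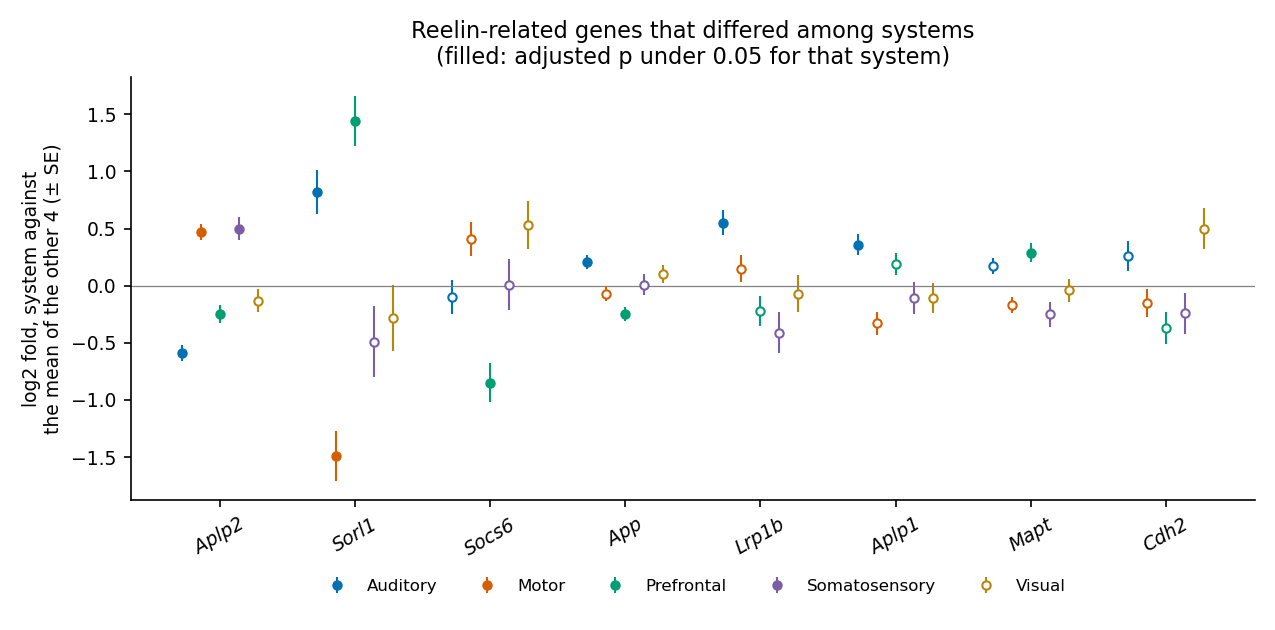
Log2 fold change ± SE between a system and the mean of the remaining 4 (edgeR) for the 8 listed genes that differed among systems. Filled points have an adjusted p under 0.05. Sorl1 spans -1.49 in motor to 1.44 in prefrontal sums, and Aplp2 is lower in auditory and higher in motor and somatosensory sums.

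The most abundant listed genes that did not pass varied to different degrees. Wasl, which acts on actin, held 402 to 483 CPM on average, and Cdk5, a kinase gene of cortical layering, 320 to 408 CPM, with edgeR adjusted p of 0.45 and 0.13. Cfl1, the gene of the actin-severing protein cofilin, held 150 to 389 CPM (adjusted p = 0.53), with a spread of 156 to 579 CPM inside the auditory system alone. The ligase subunits Elob, Eloc and Rnf7 had adjusted p of 0.75, 0.93 and 0.86 in edgeR. Among integrins and ephrins, adjusted p was 0.16 for Itgb1, 0.26 for Itga3 and 0.11 for Efnb3, which held 23.1 ± 12.1 CPM in prefrontal and 3.17 ± 2.62 in motor sums. Efnb3 passed in 4 of 31 alternatives, DESeq2 and the fit with no filter on low counts among them, with an adjusted p down to 4e-05. Clu and Apoe, which encode lipoprotein ligands of the receptors, and Plat, a protease gene, had adjusted p of 0.75, 0.51 and 0.62 in edgeR, and Apoe means ran from 9.27 to 29.8 CPM. Apoe passed in 2 alternatives, with no filter and without batch 3, and Cdk5 in 1, without auditory replicate 2. Lrp11, Lrp3 and Lrp1 had 0.17, 0.58 and 0.63. A p above the threshold does not show that these genes are alike across systems.

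Genes with the most similar pattern over the 21 sums were ranked by Pearson's r of log2(CPM + 1) among 8906 named genes of at least 10 CPM on average, as a description. The sums share batches and systems, so r mostly follows the system means. For Dab1 the 5 nearest were Caln1 (r = 0.93), Trbc2 (0.91), Gprasp2 (0.90), Trpc5 (0.90) and Calb2 (0.89), with Spearman's rho of 0.90, 0.86, 0.85, 0.87 and 0.80. Without the 2 sums farthest from the Dab1 median, r was 0.88 to 0.92. Caln1, a gene related to calmodulin, held 37.4 CPM in auditory sums, 6.02 in prefrontal, 6.01 in visual, 0.406 in motor and 0.0689 in somatosensory sums. Trpc5, a cation channel gene, held 41.1 CPM in auditory and 22.8 in prefrontal sums, above the 14 of visual sums. Calb2, which encodes calretinin, stood at 1056 CPM in auditory and 1038 in prefrontal sums, unlike Dab1, which differed between these systems.

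The nearest genes to the other members were less close. For Vldlr they were Nell1 (r = 0.81), Cntn2 (0.75) and Dapk1 (0.74), with r of 0.68, 0.69 and 0.61 without the 2 farthest sums. For Lrp8 they were Tmem14a (0.72), Epha6 (0.70) and Eef2 (0.70), with 0.58, 0.65 and 0.46. For Reln, at 37 UMIs, the nearest was the haemoglobin gene Hbb-bs (r = 0.83, rho = 0.47), followed by Mccc1 (0.74) and Nsg1 (0.72), with r of 0.57, 0.58 and 0.51 without the 2 farthest sums.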

How the data were processed

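The members and gene lists were chosen with earlier results of these data known. Per the labels' protocols, 3′ libraries carrying UMIs were made from single cells on plates, with spike-ins. The submitters' processing notes name the tools STAR 2.5.3, Picard 1.12 and cutadapt 1.16 and the build mm10. The authors deposited counts, raw UMIs per gene and cell, and a cell table. The annotation and counting rule are not given in the sources used here. Gene positions are those of GENCODE vM21. Of 375 cell barcodes, 372 served on more than 1 plate, so cells were told apart by plate and barcode. No further filter or doublet caller was applied to these hand-picked cells. The cell table flagged 20 cells (is_ODC), all with no cluster. The main sums kept them, and an alternative left them out.

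Counts were summed per animal and system, because cells are not replicates. 1 of 20 animal identifiers held auditory replicate 5 and visual replicate 1, which had different sort dates and ages and were kept apart. Tests used edgeR 4.0.16 in R 4.3.3 (TMM, filterByExpr, trended dispersion, quasi-likelihood, Benjamini-Hochberg at 0.05), with sequencing batch as covariate for systems (14 residual degrees of freedom). For anchor classes each animal and system was a block, since its classes come from the same animal (35 residual degrees of freedom), and 1 sum whose partners had under 5 cells was left out. Beyond the members, the genes named are the listed genes that passed, at most 3 per list that did not, by mean level, and the nearest genes by r. Alternatives were DESeq2 1.42.0, other scaling, filters, classes and weights, and leaving out sums, batches, systems or cells. The edgeR code was checked on simulated counts. Some listed genes are not reported here and were left out of the lists, while the fits over all genes kept every gene.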

Additional observations from a re-analysis of the deposited data

Results flagged for a closer look

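In 48 groups of 4 or 5 sums, 1 held a sum far from the others, and chance flags about 1 in 20 groups. Reln stood at 0.935 CPM in auditory replicate 2, from 12 UMIs in 1 cell, while the other auditory sums held 0 to 0.232 CPM.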

How the results depend on the processing

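The number of listed genes that differed among systems, 8, became 3 with cells summed per sort date, 2 without sequencing batch 1 and 5 without batch 3. The share called of all genes fell with it, from 12.6% to 6.96%, 6.77% and 7.79%. It was 11 with no filter, where 9.55% of all genes were called, and 11 with DESeq2, where 18.2% were. It ranged from 5 to 9 with 1 sum left out, and was 5 without auditory replicate 3, motor replicate 1 or motor replicate 2. Aplp2 and Sorl1 passed in all 31 alternatives, and the call was lost in 2 for Socs6, 4 for Lrp1b, 5 for App, 6 for Aplp1, 7 for Mapt and 21 for Cdh2. Vldlr in Calb2 against Tnnt1 cells lost its call with sums of at least 10 cells (-0.34), without batch 2 (-0.57), without batch 3 (-0.63) and without prefrontal sums (-0.36). Against Necab1 cells it lost the call with no filter (-0.45), without batch 2 (-0.40), without batch 3 (-0.51) and without motor (-0.40), prefrontal (-0.41) or visual sums (-0.54), and leaving out 1 sum gave -0.53 to -0.41. The exclusions of a system, the model with a class difference per system, and all exclusions for cells with and without Dab1 were chosen after seeing the data.

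The replicate block pairs the classes of 1 animal. Without it Calb2 against Tnnt1 gave 0.74 for Dab1, -0.58 for Vldlr and -0.34 for Lrp8, Calb2 against Necab1 gave 0.99, -0.49 and -0.13, and Necab1 against Tnnt1 gave -0.25, -0.09 and -0.21, and no call changed.

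Reversed signs were found in differences that never passed. For Necab1 against Tnnt1, Dab1 reached 0.35 without batch 1, 0.21 without visual sums and 0.03 with DESeq2. Vldlr reached 0.18 with sums of at least 10 cells, 0.04 without batch 1, 0.05 without prefrontal sums and -0.13 to 0.04 with 1 sum left out, and Lrp8 0.10 without auditory sums. For Calb2 against Necab1, Lrp8 reached 0.07 with sums of at least 10 cells, 0.25 without batch 3, 0.39 without motor sums, 0.02 without somatosensory sums and -0.18 to 0.15 with 1 sum left out.

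With cells weighted equally, somatosensory levels moved to 110 CPM (Vldlr), 34.8 (Lrp8) and 0.370 (Reln). After thinning, Lrp8 stood at 30.8 CPM in somatosensory sums and Reln at 0.669 in auditory sums. Vldlr in cells with minus without Dab1 ranged from -42.3 to -29.5 CPM with 1 animal left out. Lrp8 ranged from -3.32 to 1.61, and was 2.61 without auditory cluster 3. The cause of these changes was not tested. Reln, at 37 UMIs, is too shallow to order the systems, and 3 somatosensory animals limit every comparison with that system.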
